A study of Mus musculus with 24 samples.

Results

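The subject is the molecular chaperones and chaperonins of early red cell progenitors, followed through 40 mouse genes: HSP90, HSP70 and HSP110, the mitochondrial chaperonin, the cytosolic chaperonin TRiC, J proteins, 1 small heat shock protein and the co-chaperones that work with them. The 40 symbols were taken as a fixed set and matched by Ensembl identifier to the 49585 gene rows of a count table, 1 row for each. By place of work, 32 act mainly in the cytosol, 5 in mitochondria and 3 in the endoplasmic reticulum (ER). The table covers 24 single cells in 1 group, all labelled as burst-forming unit erythroid (BFU-E), the earliest progenitor committed to the red cell lineage. They were sorted from the fetal liver of C57/Bl6J embryos at embryonic day 14.5, one cell to a well, and sequenced by Smart-seq2, a full-length method without molecular identifiers or strand information.

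Magnetic beads had removed cells that carried lymphoid (CD3e, CD45R), myeloid (Ly-6G, CD11b, CD16/32), late red cell (Ter119), stem cell (Sca-1) or megakaryocyte (CD41) antigens, and the rest were stained for CD117, CD71 and CD24 before the sort. The sources used here name neither the gates nor the number of embryos nor any genetic alteration. With 1 group and no embryo named for any cell, the 24 cells count as 1 biological sample. Ranges and SDs below therefore describe the spread between these cells, correlations carry no p-value, and no test of a condition exists. Total counts ran from 876983 in cell 23 to 2155010, and detection means 5 or more counts of a gene in a cell. Of 12 erythroid progenitor markers, all 12 were detected in at least 12 cells, against 1 of 7 later red cell markers, 3 of 10 myeloid, 2 of 8 megakaryocyte and 1 of 6 hepatocyte markers, and none of the mast cell, macrophage, lymphoid or endothelial markers. Klf1 and Gata1, transcription factors of the red cell lineage, split the cells: 19 had both at 10 CPM (counts scaled to 1000000 per cell) or more, while cells 1, 9, 19, 23 and 24 had Klf1 below that. Of those 5, only cell 23 had Gata1 above that level, and cell 1 had the highest summed myeloid marker level, 10136 CPM against a median of 102.

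Chaperones bind unfolded or partly folded proteins and use ATP or partner proteins to let them fold. J proteins deliver clients to HSP70, nucleotide exchange factors release them, and HSP90 with its co-chaperones matures kinases and steroid receptors, while chaperonins enclose a client in a chamber. In red cell precursors HSP70 protein is known for protecting the Gata1 protein, a transcription factor, from caspase cleavage. The RNA levels compared here do not measure that protection.

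Of the 40 genes, 37 were detected in at least 12 of the 24 cells, where 12% of all gene rows and 26.1% of protein-coding rows reached that breadth. In all 24 cells, 24 of the 40 were detected, against 2.48% of gene rows. Together they held 2.83% ± 0.478 (SD over 24 cells) of a cell's counts, from 1.75% in cell 19 to 3.72% in cell 13. TRiC took 0.823% of all counts, HSP90 0.764%, HSP70 and HSP110 0.548%, the co-chaperones 0.362%, J proteins 0.171% and the mitochondrial chaperonin 0.166%. By compartment, 85.2% ± 2.66 of the chaperone counts fell on cytosolic members, 10.6% ± 2.26 on mitochondrial and 4.15% ± 1.30 on ER members. Just 3 genes, Hsp90ab1, Hspa8 and Hsp90aa1, held 35.5% ± 4.67 of them.

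The 3 genes at 0 were Hspa1a and Hspa1b, the heat-inducible cytosolic HSP70 genes, and Hspb1, a small heat shock protein that holds unfolded clients. None had a single count in any cell, so that levels up to 1.39 CPM in the deepest and 3.42 CPM in the shallowest cell (3 counts) would go unseen by counting error alone. Hspa1a and Hspa1b lie near each other on chromosome 17 and share 66.3% and 62.3% of their 50-base transcript windows with other genes, each other among them, and Hspb1 shares 50.1%. How reads that map to several places were counted is not given in the sources used here, and a 0 speaks for the unshared sequence only.

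**Figure D1:**
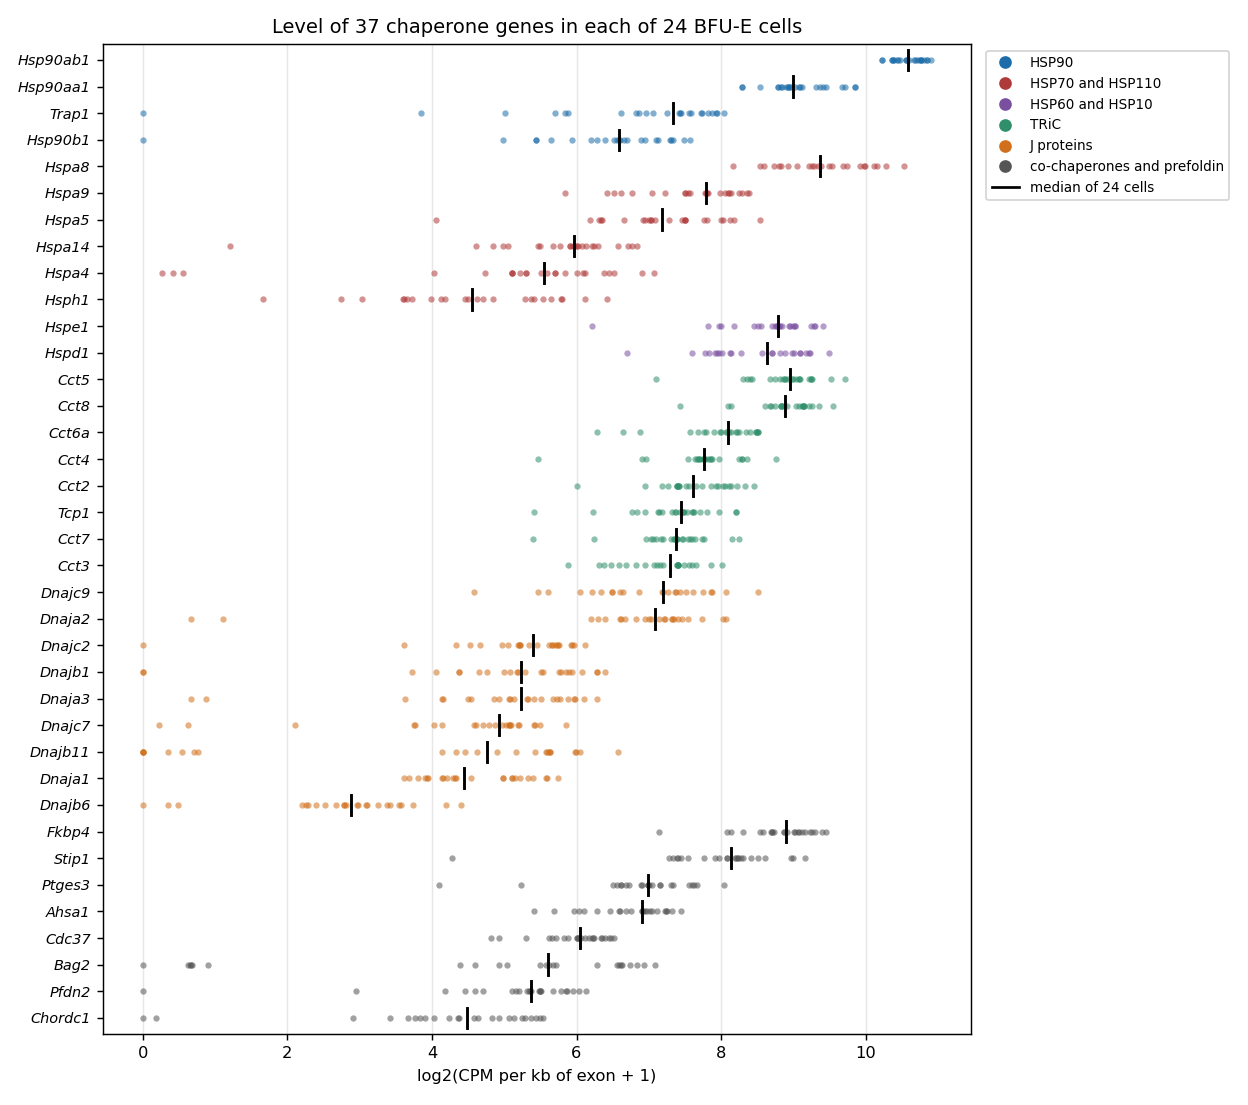
Each point is 1 cell; the horizontal axis is log2(CPM per kb of exon + 1), the vertical axis lists the 37 detected chaperone genes by class, and the black bar is the median of 24 cells. Hsp90ab1 has the highest median and the narrowest spread, while Bag2, Hspa4, Dnajb11 and Dnaja2 each have cells at or near 0.

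The most abundant member was Hsp90ab1, the constitutive cytosolic HSP90 (chr17:45567775-45573271, minus strand), with 3582, 4615 and 5763 CPM as its lowest, median and highest value. Its coefficient of variation over cells, 13.7%, was the smallest of the 37 detected members. Hsp90aa1, the inducible cytosolic form (chr12:110690605-110702728, minus strand), had 1224, 1998 and 3642 CPM, lowest in cell 19 and highest in cell 6. Genes of different length are set side by side here per kb of all annotated exons, a scale that reads low for genes with long unused exons. On it the medians were 1539 CPM per kb for Hsp90ab1 and 508 for Hsp90aa1. The log2 ratio of Hsp90ab1 to Hsp90aa1 per kb was 1.49 in the median cell, from 0.86 in cell 15 to 2.39 in cell 19, and above 0 in 24 of 24 cells. Hsp90aa1 shares 47.5% of its windows with other annotated genes and Hsp90ab1 only 3.44%. When length was counted only where the sequence is found in no other gene, the median ratio fell to 0.62, and Hsp90ab1 was the higher in 23 of 24 cells. The 2 organelle forms were lower and more uneven. Trap1 of mitochondria had 0, 414 and 676 CPM, and Hsp90b1 of the ER had 0, 384 and 762 CPM, both at 0 in cell 19 alone.

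Hspa8, the constitutive HSP70 that also strips clathrin coats (chr9:40800984-40810087, plus strand), was second. It had 1229 CPM in cell 17, a median of 2823 and 6336 in cell 15, with a coefficient of variation of 42.2%. Its median was 656 CPM per kb, and 1083 on the length found in no other gene, since 39.4% of its windows recur in other annotated genes. Those rows held few counts: the largest of the 3 checked had 107 counts over all cells against 116665 for Hspa8. In the order of medians per kb, only 2 of 36 neighbouring steps were larger than the larger SD of the pair: that from Hsp90ab1 to Hspa8, and the last one, from Dnaja1 (20.7 CPM per kb) to Dnajb6 (6.39). The other 34 neighbours did not differ beyond their spread between cells. On the length found in no other gene Hsp90ab1 still had the highest median, but closer to Hspa8, at 1594 against 1083 CPM per kb. The SD rule was not applied on that length.

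The other HSP70 relatives were lower. Hspa9, the mitochondrial HSP70 that pulls in imported proteins, had 243, 946 and 1441 CPM, and Hspa5, its counterpart in the ER, 66.0, 609 and 1566 CPM. Per kb, Hspa8 exceeded Hspa5 in 24 of 24 cells, by a median log2 ratio of 2.29, and Hspa9 in 23 of 24, by 1.76. The exception was cell 17, where Hspa8 was at its lowest and Hspa9 at its highest. Among the exchange factors of the HSP110 kind, Hsph1 had 15.8, 164 and 614 CPM and the lowest median of the class, 22.6 CPM per kb, and Hspa4 had 1.14, 253 and 740 CPM and was under 5 counts in 3 cells. Hspa14, a ribosome-bound relative, had 5.28, 249 and 459 CPM; its row overlaps another annotated gene.

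Hspd1 (HSP60) and Hspe1 (HSP10) form the chamber and the lid of the mitochondrial chaperonin and are transcribed head to head on chromosome 1. Hspd1 had 271, 1051 and 1906 CPM and Hspe1 had 108, 650 and 1004 CPM, both lowest in cell 19. Their log2 ratio per kb was 0.07 in the median cell, from -0.54 in cell 21 to 1.22 in cell 16, and Hspe1 was the higher in 14 of 24 cells. Per length found in no other gene the order turned: the median was -0.34, and Hspd1 was the higher in 16 of 24 cells. Which of the 2 was the more abundant therefore depends on the length used. The annotated exons of the genes overlap by 112 bases, where reads without strand cannot be assigned, and Hspd1 shares 42.1% of its windows with other annotated genes, a pseudogene among them.

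The DNA between the Hspe1 start and 1 Hspd1 start is shown because it lies upstream of both. RefSeq (GRCm38.p6) annotates 2 start sites for Hspd1, and 1 of them leaves 215 bases to the start of Hspe1. They are read here on the plus strand, chr1:55087933-55088147, with the last base next to the Hspe1 start. From the other Hspd1 start the 2 genes overlap by 96 bases, and the printed stretch lies inside Hspd1. Capitals mark the heat shock elements, the binding sequence of the stress factor Hsf1, searched on both strands as GAA, TTC and GAA with any 2 bases between them; 2 matches overlap here.
Hspe1 and Hspd1, shared upstream region: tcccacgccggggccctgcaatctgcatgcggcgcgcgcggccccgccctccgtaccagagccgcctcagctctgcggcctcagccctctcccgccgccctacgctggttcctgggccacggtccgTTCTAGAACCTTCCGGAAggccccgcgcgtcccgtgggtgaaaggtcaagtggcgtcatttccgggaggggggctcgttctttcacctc
Of 32851 RefSeq windows from 250 bases before to 50 bases after a start, 0.603% held this element. Among the 34 members in that table (Hsp90aa1, Hsp90ab1, Hspa8, Hspa9, Cct4 and Dnajc2 are not in it), 5 held it: Hspd1, Hspe1, Hsph1, Dnajb6 and Chordc1. These 34 have 44 windows, of which 7 held it, and Hspd1 and Hspe1 share the stretch printed above. The E-box CACGTG, which Myc and related factors bind, was in 7.15% of all windows. It was in 3 of the 44 member windows, those of Hspd1 and Hsph1, a share close to that of all windows. A match is a run of letters, and no binding was measured here.

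The pair moved together: Spearman's rho of Hspd1 with Hspe1 was 0.60 over 24 cells (Pearson's r 0.76 on log2(CPM + 1)). It was 0.79, 0.29 and 0.36 within the 3 plate columns of 8 cells each, and 0.42 in the 19 cells with Klf1. Hspd1 ran closest with Hsp90aa1, at a rho of 0.81, which was 0.93, 0.71 and 0.88 within the columns and 0.69 in the 19 cells. Every cell shares its library, and so its depth, between the genes compared; with total counts and detected genes removed, the 2 values were 0.58 and 0.71.

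**Figure D2:**
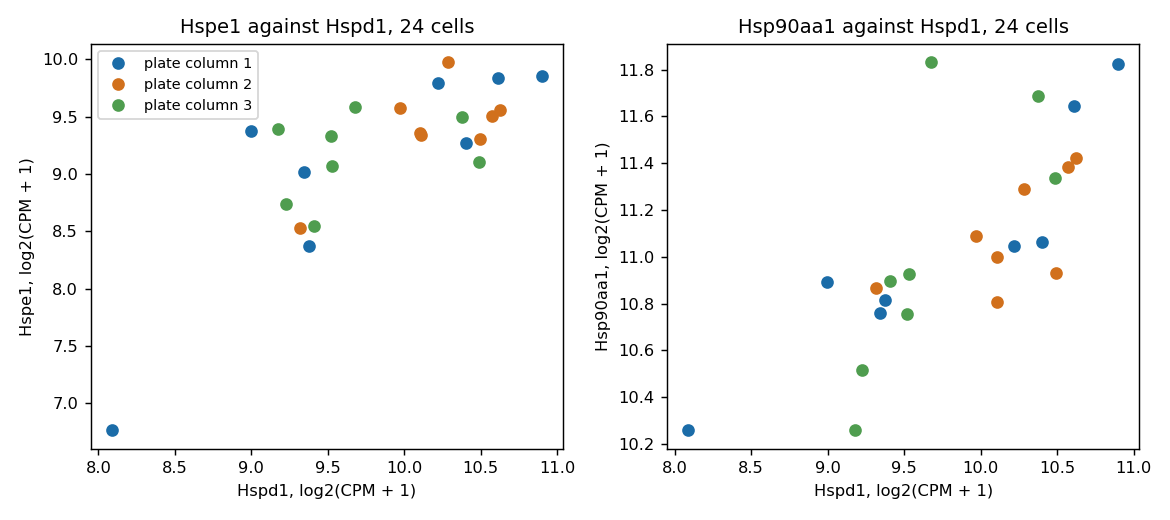
Each point is 1 of 24 cells, coloured by plate column; axes are log2(CPM + 1) of Hspd1 against Hspe1 (left) and against Hsp90aa1 (right). Both panels rise from cell 19, the point at the lower left, with rho 0.60 and 0.81.

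The 3 ER members behaved less alike. Hspa5 (BiP) binds clients entering the ER, Dnajb11 is a J protein that serves it, and Hsp90b1 (GRP94) is the HSP90 of that compartment. Dnajb11, with 0, 84.7 and 304 CPM, was detected in 16 cells, the narrowest of the detected members. Hspa5 had a rho of 0.51 with Dnajb11 and 0.03 with Hsp90b1. The first was 0.83, -0.24 and 0.61 within plate columns and 0.35 with depth removed. The ER stress element was searched on both strands as CCAAT and CCACG with any 9 bases between them. It was found in 0.119% of all windows and in 2 of 44 member windows, those of Hspa5 and Hsp90b1 alone among the 34 members. Both upstream regions are shown, since 2 genes with the same element had RNA levels with almost no rank relation across these cells; capitals mark the element. The first is chr2:34771970-34772089 on the plus strand, the second chr10:86705445-86705664 on the minus strand, each ending at the base before the RefSeq start (GRCm38.p6).
Hspa5: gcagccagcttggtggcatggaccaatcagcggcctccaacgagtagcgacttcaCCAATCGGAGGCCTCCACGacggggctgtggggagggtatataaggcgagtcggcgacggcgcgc
Hsp90b1: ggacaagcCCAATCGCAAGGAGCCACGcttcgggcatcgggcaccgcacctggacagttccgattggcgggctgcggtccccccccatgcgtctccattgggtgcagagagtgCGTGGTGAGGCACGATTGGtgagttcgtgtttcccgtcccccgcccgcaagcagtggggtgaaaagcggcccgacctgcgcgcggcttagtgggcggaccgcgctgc
Hsp90b1 holds an exact match of the element once on each strand, Hspa5 once. Inexact copies were not searched. In the annotation used for exon lengths, Hspa5 begins at 34771970 and Hsp90b1 at 86705509. By that annotation the Hspa5 stretch and the end of the Hsp90b1 stretch lie inside the genes.

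TRiC is built of 8 different subunits in equal number and folds actin, tubulin and other cytosolic proteins. All 8 were detected in 24 of 24 cells, but their RNA was unequal. Cct5 had 376, 1369 and 2311 CPM and Cct8 531, 1460 and 2297 CPM, with medians of 495 and 473 CPM per kb. Cct6a had 277, 986 and 1313 CPM, Cct4 182, 907 and 1822, and Cct2 162, 496 and 894. Tcp1 had 209, 873 and 1482 CPM, Cct7 280, 1121 and 2059, and Cct3 370, 991 and 1635, the last with the lowest median of the class, 156 CPM per kb. Within a cell the highest subunit per kb exceeded the lowest by a median of 4.87-fold, from 3.17-fold in cell 23 to 13.4-fold in cell 17. Cct8 was the highest in 12 cells, Cct5 in 11 and Tcp1 in 1, while Cct3 was the lowest in 9, Cct7 in 6 and Tcp1 in 5. Thus 6 of the 8 subunits were the lowest in some cell, and 3 were the highest in some cell. Lengths are of all annotated exons of a gene, so a subunit with long unused exons reads low. Without length, Cct2 had the lowest median, 496 CPM.

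The subunits did not rise and fall as a block. The median rho over their 28 pairs was 0.15, with Cct5 and Cct6a at 0.51 the closest. Tcp1 and Cct2 ran in opposite order, at a rho of -0.65, negative in all 3 plate columns (-0.40, -0.83 and -0.60).

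J proteins were scarce next to the HSP70s they serve. Dnajc9, which also binds histones, had the highest median of the 9, 145 CPM per kb (54.5, 344 and 865 CPM), and Dnajb6, which holds aggregation-prone proteins, the lowest (0, 38.8 and 122 CPM). Dnaja2, a general partner of Hspa8, had 1.76, 400 and 797 CPM, and without length its median was the highest of the 9. Dnaja1 and Dnajb1, the other main cytosolic partners, had medians of 179 and 117 CPM, Dnajc2 of the ribosome 207, Dnajc7 143 and the mitochondrial Dnaja3 143. Only Dnaja1 and Dnajc9 were detected in all 24 cells; the other 7 missed 1 to 8 cells.

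Among the co-chaperones, Fkbp4, an immunophilin of HSP90 complexes with steroid receptors, led with 392, 1324 and 1953 CPM (474 CPM per kb). Stip1 (HOP), which joins HSP70 to HSP90, had 38.8, 590 and 1198 CPM. Cdc37, which brings kinases to HSP90, had 224, 534 and 744 CPM and the smallest coefficient of variation of its class, 26.9%. Ahsa1, which speeds the ATPase of HSP90, had a median of 521 CPM and Ptges3 (p23), which stabilises its closed form, 280. Pfdn2, a prefoldin subunit that hands clients to TRiC, had 77.9 CPM, and 25.1% of its windows are shared with an overlapping gene. Chordc1, an HSP90 partner, had the lowest median per kb, 21.3 (0, 160 and 341 CPM). Without length, Pfdn2 was the lowest of the class.

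Members were ranked by a variance residual, the variance of log2(CPM + 1) minus its smoothed trend on the mean. The trend fitted high levels poorly: Hsp90ab1, with a variance of only 0.0405, had a residual of 1.05. The rank is therefore not a clean measure of variation beyond that of genes of like level. Of 37 tested members, 6 were among the 500 genes of largest residual out of 8266, a rank that 6.05% of those genes hold. They were Bag2, an HSP70 exchange factor, at rank 80, Hspa4 at 111, Dnajb11 at 221, Dnaja2 at 252, Trap1 at 297 and Hsp90b1 at 391. Bag2, with 0, 145 and 414 CPM, was under 5 counts in 6 cells. Without cell 19 the count was 4.

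Across the 666 pairs of the 37 members the median rho was 0.15, with 75.5% of pairs above 0; over all pairs of 8266 genes the median was 0.007 and 51.3% lay above 0. A rho of at least 0.5 was reached by 30 pairs, 4.50%, against 0.956% of all gene pairs. Among genes detected in all 24 cells, where counts are high, the shares were 8.70% of member pairs and 1.23% of gene pairs. Hsp90aa1, Hspd1, Hspe1 or Hspa9 took part in 21 of the 30 pairs. After Hsp90aa1 with Hspd1 came Hspa9 with Cct6a (0.76), Hsp90aa1 with Hspe1 (0.69), Hspa9 with Hspe1 and Dnaja3 with Dnajc7 (both 0.68) and Hspd1 with Fkbp4 (0.64). Pairs that join a TRiC subunit to a mitochondrial member had a median of 0.29, above that within TRiC (0.15) and within the ER members (0.13). Hsp90aa1 had 9 partners at 0.5 or more, Hsp90ab1 had Fkbp4 at 0.56, and the 2 HSP90 forms ran together at 0.38. Besides Tcp1 with Cct2, only Trap1 with Cdc37 lay at or below -0.5 (-0.61). With total counts and detected genes removed the median of all member pairs was 0.10.

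**Figure D3:**
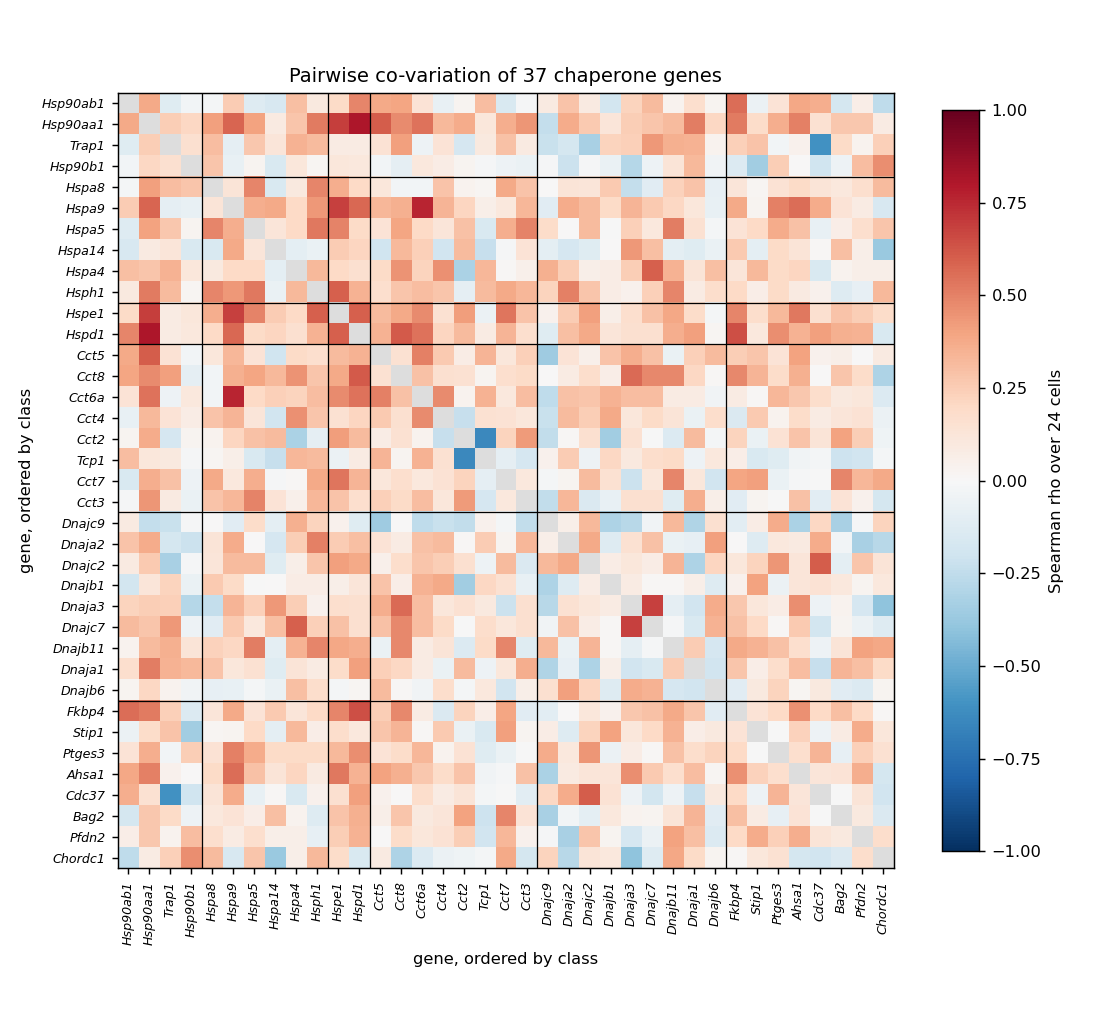
Colour gives Spearman's rho over 24 cells for each pair of 37 chaperone genes, ordered by class on both axes, with lines between classes and grey on the diagonal. Red rows run across Hsp90aa1, Hspa9, Hspe1 and Hspd1, and the darkest blue cells are Tcp1 with Cct2 and Trap1 with Cdc37.

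Cell 19 stood apart from the rest. It was the lowest cell for 16 of the 37 members, had 9 of them under 5 counts and held the highest share of mitochondrially encoded counts, 4.92% against a median of 3.59%. Cell 23, the shallowest, was lowest for 6, and cell 3 for 5, while cell 13 was highest for 7. Hspa8 in cell 19 was at 2770 CPM, near the median, while Hspe1 there was at 108 CPM. The median over member pairs was 0.11 without cell 19.

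Hspa8 did not follow Gata1. Its rho with Gata1 was 0.10 over 24 cells and -0.03 in the 19 cells with both Gata1 and Klf1 at 10 CPM or more. Of all 8265 other tested genes, 68.0% had a rho with Gata1 at least as far from 0. Within plate columns it was 0.40, -0.31 and 0.02. With Klf1 the rho was 0.28 over 24 cells and 0.38 in the 19, and 28.0% of genes lay at least as far from 0. Within columns that was 0.55, -0.07 and 0.64, and it was 0.01 once total counts and detected genes were removed. Klf1 itself had a rho of 0.65 with total counts and -0.69 with the summed myeloid markers. The myeloid list (3 of 10 broadly detected, 3 at 0 in every cell, Elane among them) summed to 0.595 to 10136 CPM per cell, and Mpo, its most abundant gene, was detected in 12 cells. The summed mitochondrial chaperones had a rho of -0.75 with that sum, all chaperones -0.55 and Hspa8 -0.07. In the 19 cells these were -0.61, -0.37 and -0.03. There the erythroid progenitor marker sum had -0.75 with the mitochondrial and -0.56 with all chaperones, against -0.14 and -0.12 over 24 cells. Klf1 and Gata1, both on that marker list, did not share this: in the 19 cells Klf1 had 0.37 and 0.54, and Gata1 0.03 and 0.11. The sum adds plain CPM, so abundant genes weigh most: Car1 alone reached 5252 CPM, where the highest sum was 8036. The megakaryocyte marker sum had -0.69 and -0.55 in the 19, and the hepatocyte sum 0.02 and 0.01. The part of depth or of myeloid transcripts in the Klf1 values was not tested. The 5 cells with little Klf1 kept Hspa8 at 1827, 2282, 2770, 3661 and 4144 CPM, inside the range of the other 19.

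**Figure D4:**
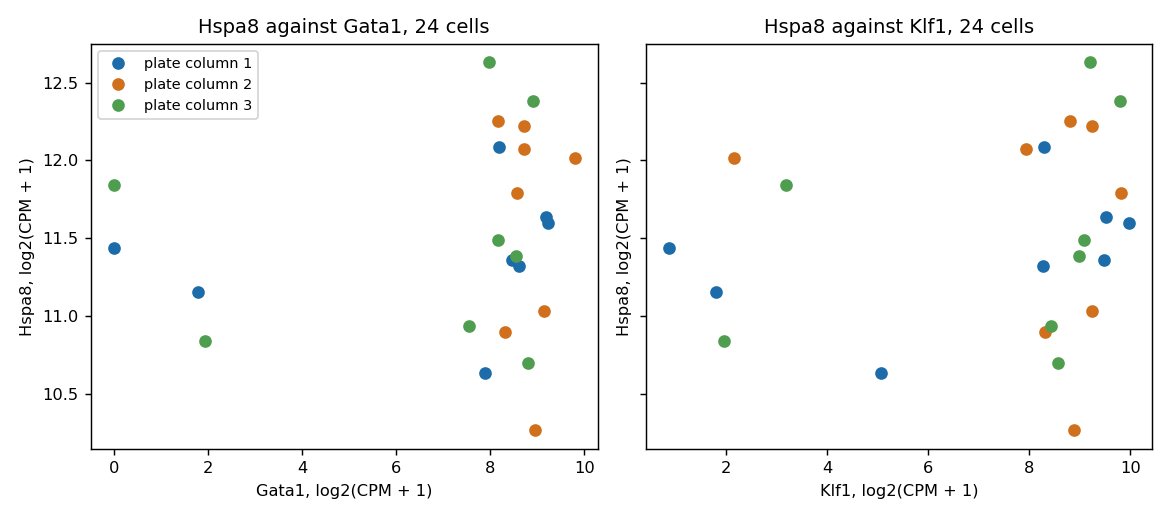
Each point is 1 of 24 cells, coloured by plate column; the vertical axis is Hspa8 and the horizontal axis Gata1 (left) or Klf1 (right), all as log2(CPM + 1). The 4 cells with Gata1 and the 5 with Klf1 under 10 CPM sit at the left of each panel, with Hspa8 inside the range of the other cells.

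Some other chaperones ran closer with these factors than Hspa8 did, but the median member did not. Over the 37 members the median rho was 0.28 with Klf1 and 0.075 with Gata1, against 0.28 and 0.10 for Hspa8. Over all tested genes the medians were 0.056 and 0.029. With Klf1, 34 of 37 members had a rho above 0 (58.3% of genes), 27 of 37 with Gata1 (54.7%) and 29 of 36 with Hspa8 (53.1%). With Klf1, 4 of 37 had a rho of at least 0.5 (3.56% of genes did): Hspd1 and Hsp90aa1, both 0.64, Hspe1 at 0.60 and Cct8 at 0.57. All 4 fell below 0.5 in the 19 cells, to 0.41, 0.38, 0.35 and 0.42. Those cells were picked by their Klf1 level, which narrows its range, so the fall alone cannot show what the higher values rest on. With depth removed over 24 cells the 4 were at 0.53, 0.45, 0.57 and 0.25. All 4 were among the 24 members detected in every cell, a set of genes in which 5.2% reached that rho. In the 19 cells, 3 other members reached 0.5 (2.69% of genes in those cells): Hspa5 at 0.65, Dnajc9 at 0.53 and Dnajc2 at 0.50. Over 24 cells these 3 were at 0.42, 0.02 and 0.38, and with depth removed over 24 cells at -0.06, -0.13 and 0.35. With Gata1, 2 of 37 reached 0.5 (1.2% of genes), Cct2 at 0.64 and Bag2 at 0.54. Cct2 was 0.55, 0.62 and 0.74 within columns. In the 19 cells 2 members reached 0.5 (1.65% of genes), Dnajc2 at 0.52 and Cct2 at 0.50, while Bag2 was at 0.28. With depth removed Cct2 was at 0.43 and Bag2 at 0.42, both below 0.5, and Cct6a alone reached it, at 0.50. Over 24 cells Cct7 was the third with Gata1, at 0.47, and with depth removed it was at 0.38. Among genes detected in every cell, 1 of 24 members reached 0.5 with Gata1, against 1.71%. No member lay at or below -0.5 with either factor, where 0.69% of genes did for Gata1 and 2% for Klf1.

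No other member reached 0.5 with Hspa8, a level 1.16% of genes reached (1.3% of those detected in every cell), and none lay at or below -0.5, as 0.762% of genes did. The closest were Hsph1, its exchange factor, and Hspa5, both at 0.49, and Hsp90aa1 at 0.41. In the 19 cells Hsph1 and Hspa5 were both at 0.57, where 2.54% of genes reached 0.5. Hsph1 held within each plate column, at 0.62, 0.52 and 0.60. With depth removed Hsp90aa1 reached 0.52, and Dnaja3 fell to -0.60 from -0.24. The median rho of the 36 other members with Hspa8 was 0.13, against 0.018 over all genes.

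The genes whose levels ran most like Hspa8, among 5532 named protein-coding genes detected in at least 12 cells, were Nt5c2 (rho 0.78), Ash1l and Rbpj (both 0.72), Mrpl15 (0.71) and Txndc11 (0.68). Those running most against it were Oxa1l (-0.72), Phactr2 (-0.68), Sinhcaf (-0.65), Il17ra (-0.64) and Snx9 (-0.62). Mrpl15, a mitochondrial ribosome protein with 46.2, 197 and 399 CPM, was the only one of the 10 detected in every cell. All 10 were picked as the extremes of 5532 values over 24 cells. Ash1l and Rbpj had medians of only 7.42 and 7.38 CPM and were detected in 13 and 15 cells.

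A further 82 genes of the folding machinery were listed: stress regulators, other J proteins, exchange factors, HSP90 and TRiC partners, small heat shock proteins and folding enzymes of the ER and mitochondria. In at least 12 cells 59 of them were detected, and 5 had no cell with 5 counts. All 8 ER folding enzymes and all 6 mitochondrial quality control genes were broadly detected, but none of the 4 small heat shock proteins. Hsf1, the regulator of the heat shock response, was detected in 24 cells, with 9.72, 97.2 and 255 CPM, although Hspa1a and Hspa1b were at 0. Of the 71 tested, 2 (2.82%, beside 1.16% of all genes) had a rho of at least 0.5 with Hspa8: Afg3l2, a mitochondrial protease, at 0.54, and Ppid, an HSP90 immunophilin, at 0.51. Hscb, a J protein of iron-sulfur cluster assembly, was at -0.50. With Klf1, 3 (4.23%, close to the 3.56% of all genes) reached 0.5, Bag3 (0.66), Ppid (0.56) and Tomm70a (0.54), and none did with Gata1.

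The summed chaperone share was set beside scores for growth and the cell cycle. It ran with a ribosome assembly score, the mean of 10 standardised nucleolar genes such as Npm1 and Ncl, at a rho of 0.84 over 24 cells. The value was 0.86, 0.86 and 0.88 within plate columns, 0.77 in the 19 cells with Klf1, 0.69 with total counts and detected genes removed, and between 0.82 and 0.85 with any 1 cell left out. Of 37 members, 7 had a rho of at least 0.5 with the score (3.77% of genes): Hsp90aa1 at 0.78, Hspd1 at 0.77, Hspe1 at 0.67, Fkbp4 at 0.64, Hspa9 at 0.59, Hsph1 at 0.58 and Cct7 at 0.56. With Myc, a growth regulator, the share ran at 0.56, and 4 members reached 0.5 (2.34% of genes), Hsp90aa1 the closest at 0.71. The share with Myc was 0.79, 0.55 and 0.21 within plate columns, 0.44 in the 19 cells and 0.37 with depth removed. With the S phase score the share had 0.28 and 3 members reached 0.5 (1.1% of genes). With the score for G2 and M it had 0.31 and 1 member (1.88%). Within plate columns the share had 0.21, 0.26 and 0.26 with S phase, and 0.74, -0.40 and -0.05 with G2 and M. The share also ran against the mitochondrially encoded share of counts, at -0.68, and with total counts, at 0.54. All of these are shares of the same total in a cell, and the part of depth and RNA quality was not tested beyond the values given.

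**Figure D5:**
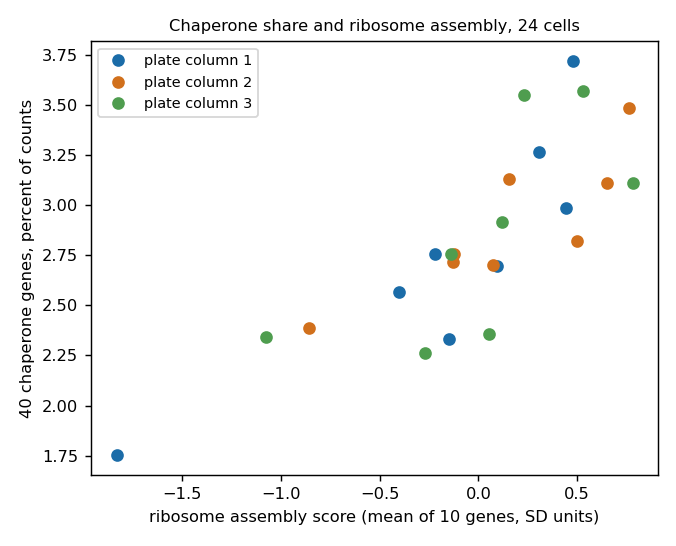
Each point is 1 of 24 cells, coloured by plate column; the horizontal axis is the mean of 10 standardised ribosome assembly genes and the vertical axis the percent of counts on the 40 chaperone genes. The points rise together in all 3 columns, from cell 19 at 1.75% to cell 13 at 3.72%.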

How the data were processed

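Raw read counts per gene for 24 cells were deposited by the authors, aligned with STAR 2.4 to GRCm38 and counted with featureCounts, per the submitters' processing notes; the sources used here give neither the annotation release nor the handling of multi-mapping reads. No doublet caller was run, as cells were sorted one to a well. Counts were scaled to CPM over all 49585 gene rows and compared as log2(CPM + 1); lengths, overlaps and shared 50-base windows came from GENCODE M21, and promoters from RefSeq. Correlations used genes with at least 5 counts in at least 6 cells. Shares of counts have a precision set by totals of 876983 to 2155010 per cell, and PCR reads are not independent molecules. Removing depth means taking residuals on log10 total counts and detected genes. The functions were tested on simulated data. Alternatives were edgeR 4.0.16 TMM and DESeq2 1.42.0 size factors, pseudocount 10, thinning to 876983 counts, plate columns, detection and length rules, and leaving out cells. Members and lists were chosen with earlier results of these data known. All members are named; values in full go to Hspa8, the extremes per kb of each class, the HSP90 forms, Hspa1a, Hspa1b, Hspd1, Hspe1, TRiC, and those with the largest variance residual or rho, and likeness to Hspa8 took the 5 highest and 5 lowest genes. Other members named, the promoter motifs and the counts of members against the scores were chosen after their values were seen.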

Additional observations from a re-analysis of the deposited data

How the results depend on the processing

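Leaving out each cell in turn moved the median rho of the members between 0.11 and 0.17, Hspa8 with Gata1 between 0.032 and 0.20, Hspa8 with Klf1 between 0.21 and 0.35, Hspd1 with Hspe1 between 0.54 and 0.65, the HSP90 log2 ratio between 1.485 and 1.504, the TRiC fold between 4.80 and 4.95, and the counts of members at a rho of at least 0.5 or at most -0.5 between 1 and 3 for Gata1 (1 without cell 1), 4 and 6 for Klf1 and 0 and 2 for Hspa8; the count of variable members lay between 4 and 6. The count for Hspa8 was 2 with TMM scaling, 1 with DESeq2 size factors and 2 without the 5 cells low in Klf1. With depth removed it was 2, Hsp90aa1 at 0.52 and Dnaja3 at -0.60. With depth removed the counts were 1 for Gata1 (Cct6a; Cct2 and Bag2 lost the call) and 2 for Klf1 (Hspd1 and Hspe1), and Hspa8 with Klf1 stood at 0.0096. Without the cells low in Klf1, Hspa8 with Gata1 was -0.030 and Hspd1 with Hspe1 0.42. Plate columns 1, 2 and 3 gave 0.40, -0.31 and 0.02 for Hspa8 with Gata1, 0.55, -0.071 and 0.64 with Klf1, and 0.79, 0.29 and 0.36 for Hspd1 with Hspe1. Chosen after seeing the data, a rho of 0.4 gave 5 members for Gata1 and 8 for Klf1, and unshared length an HSP90 ratio of 0.62 and a ratio of Hspe1 to Hspd1 of -0.34, reversed from 0.07. Beyond construction, the cause of these moves was not tested. Detection, the share of counts, the TRiC fold and the variability count stayed within 1 SD or 1.5 times their values under every other alternative run. No paired analysis was possible because there is 1 group. With 24 cells of unknown embryos and no molecular identifiers, a rho near 0.5 is loosely fixed, and a gene at a few counts is not separated from absence.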
